A study of Mus musculus with 27 samples.

Results

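The comparison described here sets the livers of mice that were still on calorie restriction when they were killed against the livers of all mice that could eat freely, whatever they ate and whatever they had eaten before. It was made as a single contrast, the mean of 5 CR mice minus the average of 3 group means, which came from 8 C, 7 MF and 7 CR-MF mice. Genes were then followed up if each of the freely fed groups differed from CR in the same direction, and 406 of 13993 genes tested met this rule. All 27 animals of the series were used. All were male C57BL/6J mice, started on their diets at 9 weeks of age and were killed at 28 months. C mice ate AIN-93W ad libitum. MF mice ate a medium-fat form of that diet, with 25% of its energy from fat, ad libitum. CR mice were on 30% calorie restriction: they received portions holding 70% of the mean energy intake of C mice, once a day in the afternoon, of a form of AIN-93W enriched in vitamins and minerals. CR-MF mice had lived on the same restriction until 24 months and then ate the medium-fat diet freely for 4 months, so restriction up to 24 months is shared by CR and CR-MF, and a fat-rich diet by MF and CR-MF. Before death every mouse was fasted for 4 hours, given a carboxymethyl cellulose solution by gavage and fasted for another 6 hours, but only CR mice were given a part of their portion shortly before the first fast. Low energy intake, the timed daily meal, the diet enriched in vitamins and minerals and this last small meal therefore cannot be told apart in any result below.

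Restriction is known as a dietary regimen that lengthens life in rodents, and the liver is one of the organs that responds to it most. Between meals the liver breaks down its glycogen, makes glucose from amino acids and lactate and burns fatty acids, and after a meal it stores glycogen and makes fat. Mice given a single daily portion eat it quickly and then go without food for most of the day, so that their livers pass through both states every day. The hepatic clock follows the meal as well as the light.

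The arrays were alike in overall signal. Median log2 intensity ran from 5.38 to 5.48 per array, and any pair of arrays correlated with a coefficient between 0.975 and 0.991 over all transcript clusters. Hepatocyte transcripts were at the top of the scale in every mouse, with mean log2 levels of 13.6 for Alb (albumin), 13.2 for Ttr (transthyretin) and 13.4 for Apoa1 (apolipoprotein A1), and they varied too little between mice to pass the filter on spread. The adipocyte hormone Adipoq was at or below the intensity minimum on all 27 arrays. The array names place 19 mice on plate G150, among them 3 CR mice, and 4 mice, 1 of each group, on each of the plates G151 and G152. Well row followed diet: all C samples were in row F, all MF samples in row G and all CR-MF samples in row H. CR samples were in row F on plate G150 and in row G on plates G151 and G152, and none was in row H.

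In total 265 genes were called higher in CR than the freely fed average (adjusted p below 0.05, limma), which is 1.89% of the genes tested, and 222 were called lower (1.59%). An unadjusted p below 0.05 was found for 2986 genes. Whether called or not, 7320 genes lay above the freely fed average in CR and 6673 below it. With each of the differences from C, MF and CR-MF in one direction and at p below 0.05, 235 genes remained higher in CR (1.68% of the genes tested) and 171 lower (1.22%). The differences share the CR arrays and are not independent of each other. At the edge of the rule, Myh10 (-0.38, adjusted p 0.0499) was just inside and Cdc40 (0.23, adjusted p 0.0502) just outside. The median difference from the freely fed average was 0.38 on the log2 scale for the genes higher in CR and -0.42 for those lower, beside a median of 0.01 over all genes tested, and for 309 of the 406 the change was under 1.5-fold. The difference reached 1 on the log2 scale for 15 of the higher and -1 for 16 of the lower genes. Measured separately, the median of the higher genes was 0.37 against C, 0.40 against MF and 0.33 against CR-MF, and that of the lower genes was -0.43, -0.45 and -0.38. The smallest of the differences was the one from CR-MF for 221 of the 406 genes, from C for 123 and from MF for 62. This count was not made over all genes tested. When every array was centred on its median over the named genes, 690 genes (4.80% of those tested on that scale) met the rule as higher and 0.709% as lower. The median level of CR arrays over the named genes differed by -0.0885 from that of the freely fed groups. None of the genes followed singly changed direction on that scale. The counts rest on few CR mice: without mouse 3, 64 genes were higher and 35 lower than each group, without mouse 1, 92 and 42, without mouse 7, 154 and 77, and without mouse 13, 0.815% and 0.700% of the genes tested, while without mouse 5 there were 268 and 204.

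A stricter rule, an adjusted p below 0.05 in each of the differences separately, was met by 28 genes (0.200% of those tested), 19 higher and 9 lower. For 20 genes (0.143%) the 5 CR mice all lay outside the range of the 22 freely fed mice, 12 of them higher and 8 lower, and 19 of these 20 were among the 406. Both requirements were met by 6 genes. Ppp1r3g, Ppargc1a, Tmem63b and Crkl were the 4 higher in CR, and Tsc22d1 and Smarca4 the 2 lower.

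The difference was largest for Ppp1r3g, which encodes a subunit that brings protein phosphatase 1 to glycogen and so favours glycogen synthesis. The log2 levels in the 5 CR mice were 8.26, 8.66, 9.03, 9.30 and 9.47, while C mice ran from 5.35 to 7.52 with a median of 6.38, MF mice from 4.79 to 6.41 with a median of 6.32 and CR-MF mice from 5.48 to 7.23 with a median of 5.77. No freely fed mouse reached the lowest CR mouse. The difference from the freely fed average was 2.80 ± 0.30 (log2, SE of the fit), or 6.98-fold, with an adjusted p of 1.23e-05, and it was 2.82, 1.90 and 3.43 within plates G150, G151 and G152. Of the 16 genes tested of a list on glycogen metabolism, only Ppp1r3g was called higher. Gyg (glycogenin, the primer of glycogen) was called lower, -0.34 ± 0.09, adjusted p 0.0358, but its level in CR-MF mice was close to that in CR mice (CR minus CR-MF -0.08) and it did not meet the rule for all groups, and its call ended without CR mouse 1, 3, 7 or 13 (adjusted p up to 0.140) and with median centring (adjusted p 0.0507). The calls were 12.5% of the list, beside 1.89% of all genes called higher and 1.59% lower, and the list median was 0.06.

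Ppargc1a, the coactivator PGC-1α that switches on gluconeogenesis and mitochondrial genes in the fasted liver, was 2.03-fold higher in CR. The CR mice had log2 levels of 8.76, 8.80, 9.17, 9.47 and 9.84, above the whole of the C range (7.63 to 8.72, median 8.30), the MF range (7.65 to 8.47, median 8.22) and the CR-MF range (7.87 to 8.35, median 8.18). Its difference was almost the same against C (0.97), MF (1.04) and CR-MF (1.05), each with an SE of 0.18, and the adjusted p of the contrast was 0.000870. Further members of a list of 16 tested genes of gluconeogenesis and its coactivators were called higher too, and none lower: Sik1 (a kinase that restrains the cAMP response, 0.74 ± 0.18, adjusted p 0.0268), Got1 (cytosolic aspartate aminotransferase, 0.59 ± 0.14, adjusted p 0.0222), Pck1 (the cytosolic enzyme at the entry to gluconeogenesis, 0.33 ± 0.08, adjusted p 0.0296) and Ppargc1b (the related coactivator PGC-1β, 0.43 ± 0.12, adjusted p 0.0401). These make 5 of 16, or 31.2% of the list beside 1.89% of all genes. For Ppargc1b the difference from CR-MF was 0.22 and did not pass, whereas the other 4 met the rule for all groups. Slc25a25, a mitochondrial carrier of ATP-Mg and phosphate, had levels of 9.24, 9.62, 9.85, 10.18 and 10.19 in the CR mice, against 8.44 to 9.32, median 9.03 in C, 8.92 to 9.26, median 9.03 in MF and 8.69 to 9.72, median 9.04 in CR-MF mice, so that the groups overlapped slightly (0.78 ± 0.14, adjusted p 0.00378). Leaving out single mice ended the calls of Got1 (without CR mouse 3 or 7, adjusted p up to 0.0991), Sik1 (without CR mouse 1, 3 or 7, adjusted p up to 0.123), Pck1 (without CR mouse 1, 3, 7 or 13, adjusted p up to 0.121) and Ppargc1b (without any 1 of 7 mice, adjusted p up to 0.136), while those of Ppp1r3g, Ppargc1a and Slc25a25 stood without any single mouse.

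**Figure D1:**
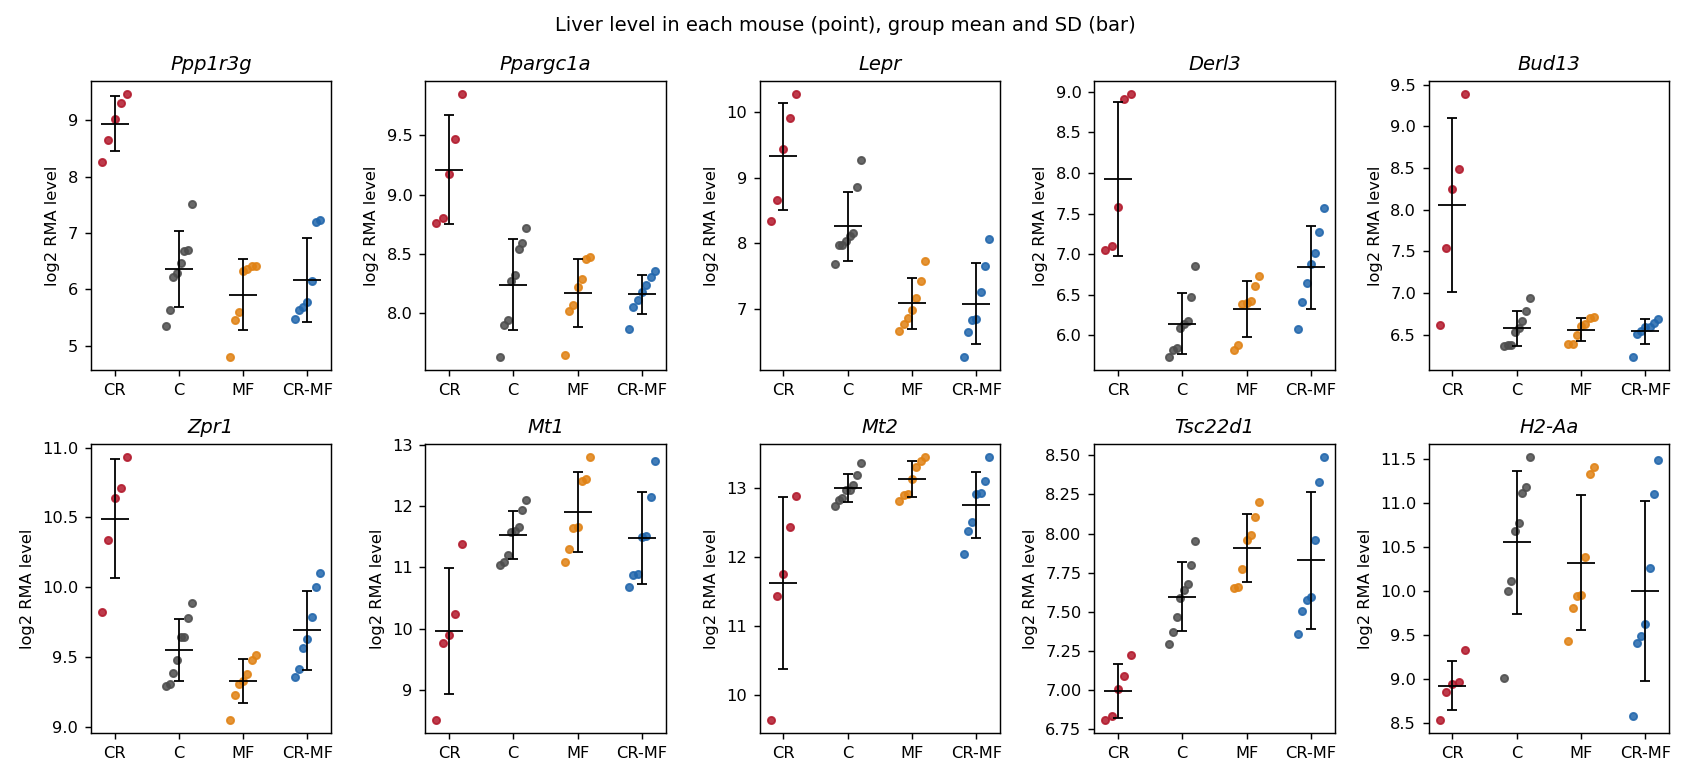
Log2 RMA level (y axis) of 10 genes in the liver of each mouse (points, sorted within a group) for CR, C, MF and CR-MF, with the group mean and SD (black bars). Ppp1r3g and Ppargc1a are higher, and Tsc22d1 lower, in all 5 CR mice than in any freely fed mouse, whereas for the other genes 1 or more CR mice lie within the freely fed range.

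Among the promoter sequences in RefSeq (GRCm38.p6, from 250 bases before to 50 bases after a transcription start), at least 1 could be matched to 332 of the 406 genes. A start site of Slc25a25 is shown because it holds a cAMP response element, TGACGTCA, the palindrome bound by CREB, which is active in the fasted liver. The window is chr2:32424017-32424316 on the minus strand, the element is in capitals, and its first base is at position -150 from the start:
Slc25a25: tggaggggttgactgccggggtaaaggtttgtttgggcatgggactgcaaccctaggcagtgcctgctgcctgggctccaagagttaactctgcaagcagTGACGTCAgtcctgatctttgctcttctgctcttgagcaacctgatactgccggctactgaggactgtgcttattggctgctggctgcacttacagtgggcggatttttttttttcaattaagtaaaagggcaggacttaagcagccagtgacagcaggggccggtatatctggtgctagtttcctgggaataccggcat
Over both strands this element was present for 6 of 193 genes higher in CR (3.11%), 4 of 139 lower in CR (2.88%) and 3.21% of the 11053 genes tested that had a window. None of the exact sequences searched was present in the windows of Ppp1r3g, Ppargc1a or Pck1. Variants of an element were not searched, and the Pck1 window holds TTACGTCA, which differs from TGACGTCA in 1 base.

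Lepr, the leptin receptor, whose circulating form the liver releases, followed a graded pattern. The CR mice had log2 levels of 8.34, 8.66, 9.44, 9.91 and 10.27, and the C mice from 7.69 to 9.27 with a median of 8.07, so that these groups overlapped. MF mice (6.65 to 7.73, median 6.99) and CR-MF mice (6.26 to 8.05, median 6.85) lay below every CR mouse. CR exceeded C by 1.07 ± 0.31, MF by 2.24 ± 0.32 and CR-MF by 2.25 ± 0.32 on the log2 scale (3.61-fold over the average, adjusted p 0.000476). It was the only one of the 406 genes for which the freely fed groups themselves differed (F test over C, MF and CR-MF, adjusted p 0.0336). Of all genes tested 0.822% passed that test, 15 of them among the 487 genes called in the contrast. The genes that came closest after Lepr were Igfbp2 (adjusted p 0.0643), Slc2a8, a sugar transporter (adjusted p 0.0735), and Themis (adjusted p 0.0970). Igfbp2, which encodes a secreted protein that binds insulin-like growth factors, had levels of 10.72, 10.96, 11.13, 11.35 and 11.43 in CR mice and 9.49 to 10.46, median 9.90 in C, 8.35 to 10.10, median 9.55 in MF and 9.69 to 11.11, median 10.41 in CR-MF mice (1.24 ± 0.23, adjusted p 0.00451). All CR mice were above all C and MF mice, and the CR-MF range reached into that of CR. Among 34 tested genes of insulin, leptin and nutrient signalling, Lepr, Irs2 and Prkaa2 were higher and none was lower (8.82%, beside 1.89% of all genes called higher and 1.59% lower). Irs2 encodes the insulin receptor substrate that rises in the fasted liver (0.68 ± 0.16, adjusted p 0.0168), and Prkaa2 the catalytic α2 subunit of AMP-activated kinase (0.38 ± 0.10, adjusted p 0.0353). Of 18 genes of growth hormone and IGF1 signalling, 1 was called in each direction (11.1%, beside 1.89% of all genes called higher and 1.59% lower). Igfbp2 was higher and Stat5a, a transcription factor downstream of the growth hormone receptor, was lower (-0.36 ± 0.10, adjusted p 0.0409). Leaving out single mice ended the calls of Irs2 (without CR mouse 3 or 7, adjusted p up to 0.0991), Prkaa2 (without CR mouse 1, 3, 5 or 13, adjusted p up to 0.103) and Stat5a (without C mouse 3 or CR mouse 1, 3, 7 or 13, adjusted p up to 0.142). The call of Stat5a also ended with plate as a block (adjusted p 0.0514), and with median centring (adjusted p 0.105).

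Of 13 tested genes of the core clock, Rora (the receptor RORα, which activates Arntl; 0.39 ± 0.07, adjusted p 0.00546) and Cry1 (cryptochrome 1, a repressor of CLOCK and BMAL1; 0.79 ± 0.19, adjusted p 0.0262) were higher in CR, or 15.4% of the list beside 1.89% of all genes, none was lower, and the list median was 0.18. Per2 (0.37 ± 0.11, adjusted p 0.0543) and Per1 (0.22 ± 0.07, adjusted p 0.0782) came next and did not pass. Noct (nocturnin, a rhythmic phosphatase of NADP(H)) was the only one of 11 output genes to pass, or 9.09% of that list (0.80 ± 0.14, adjusted p 0.00374). Its CR levels were 8.44, 8.60, 8.64, 8.87 and 9.28, above every C mouse (7.73 to 8.28, median 8.13) and every MF mouse (7.60 to 8.27, median 8.20), while 1 CR-MF mouse (7.39 to 8.65, median 7.83) reached into the CR range. For Cry1 the CR mice ranged widely, 6.25, 7.10, 7.50, 7.87 and 8.17, and the lowest of them lay inside the range of C (6.17 to 6.84, median 6.57) and MF mice (6.00 to 7.21, median 6.67) and below that of CR-MF mice (6.35 to 7.19, median 6.51). Its call ended without CR mouse 1, 3 or 7 (adjusted p up to 0.131). The promoter window of Cry1 is given since it holds both an E-box (CACGTG, the site of CLOCK and BMAL1 and of other factors; position -60) and a FOXO site (GTAAACA; position -95), both in capitals (chr10:85185005-85185304, minus strand):
Cry1: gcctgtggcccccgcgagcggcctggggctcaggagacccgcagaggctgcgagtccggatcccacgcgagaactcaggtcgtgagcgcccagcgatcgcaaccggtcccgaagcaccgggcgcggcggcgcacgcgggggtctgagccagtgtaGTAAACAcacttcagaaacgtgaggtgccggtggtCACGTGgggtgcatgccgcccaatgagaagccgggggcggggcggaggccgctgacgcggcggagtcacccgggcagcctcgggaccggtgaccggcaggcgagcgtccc
An E-box was found for 28 of 193 higher genes (14.5%), 16 of 139 lower genes (11.5%) and 10.9% of all genes tested that had a window, and a FOXO site for 2.59%, 2.16% and 3.17%. These shares are descriptions and were not tested.

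Of 27 tested genes of fatty acid and triglyceride synthesis 6 were called higher and none lower (22.2%, beside 1.89% of all genes called higher), and the median of all 27 was 0.38. They were Mlxipl, which encodes ChREBP, the factor that senses glucose (0.38 ± 0.08, adjusted p 0.0141), Acaca and Fasn, the enzymes of the committed step and of chain assembly (0.64 ± 0.16, adjusted p 0.0247 and 0.92 ± 0.25, adjusted p 0.0401), Elovl6, which lengthens palmitate (0.86 ± 0.21, adjusted p 0.0223), and Lpin2 and Dgat1 of triglyceride assembly (0.52 ± 0.13, adjusted p 0.0241 and 0.29 ± 0.08, adjusted p 0.0492). All 6 met the rule for all groups. Mlxipl did not overlap between CR (10.80, 10.81, 10.83, 10.88 and 11.02) and any freely fed mouse (C 10.05 to 10.72, median 10.47, MF 10.18 to 10.64, median 10.44, CR-MF 10.22 to 10.75, median 10.65). For Fasn, CR levels were 10.88, 11.32, 11.33, 11.85 and 12.80, with mouse 5 the highest, and all freely fed groups overlapped with them (C 10.50 to 11.48, median 10.94, MF 9.45 to 11.29, median 10.65, CR-MF 9.84 to 11.13, median 10.78). Its difference was 0.62 against C, 1.11 against MF and 1.02 against CR-MF. Leaving out single mice ended the calls of Acaca (without CR mouse 5 or 13, adjusted p up to 0.0797), Elovl6 (without CR mouse 3, 5 or 13, adjusted p up to 0.0675), Lpin2 (without CR mouse 3, 7 or 13, adjusted p up to 0.0879), Fasn (without any 1 of 8 mice, adjusted p up to 0.136) and Dgat1 (without any 1 of 20 mice, adjusted p up to 0.150), and Dgat1 also with plate as a block (adjusted p 0.0603). The direction was shared by the cholesterol pathway, in which 20 of 20 tested genes were above the freely fed average (median 0.55), but only Pmvk, phosphomevalonate kinase, passed (0.93 ± 0.25, adjusted p 0.0375), and its call ended without any one of the 5 CR mice. The next were Lss (lanosterol synthase, 0.89 ± 0.28, adjusted p 0.0713), Insig1 (a brake on SREBP, 0.74 ± 0.24, adjusted p 0.0729) and Stard4 (a sterol carrier, 0.58 ± 0.19, adjusted p 0.0752). None of 27 tested genes of fatty acid oxidation and PPARα was called (median 0.08), and none of 28 genes of steatosis and lipid uptake (median -0.11). Cd36, a fatty acid translocase, was -0.71 from C and -0.89 from MF but 0.16 from CR-MF, and it differed among the freely fed groups (adjusted p 0.0200). Fabp4, a fatty acid binding protein, was -0.84 ± 0.38, adjusted p 0.196, and Cav1, caveolin 1, -0.17 ± 0.15, adjusted p 0.533, and neither passed.

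**Figure D2:**
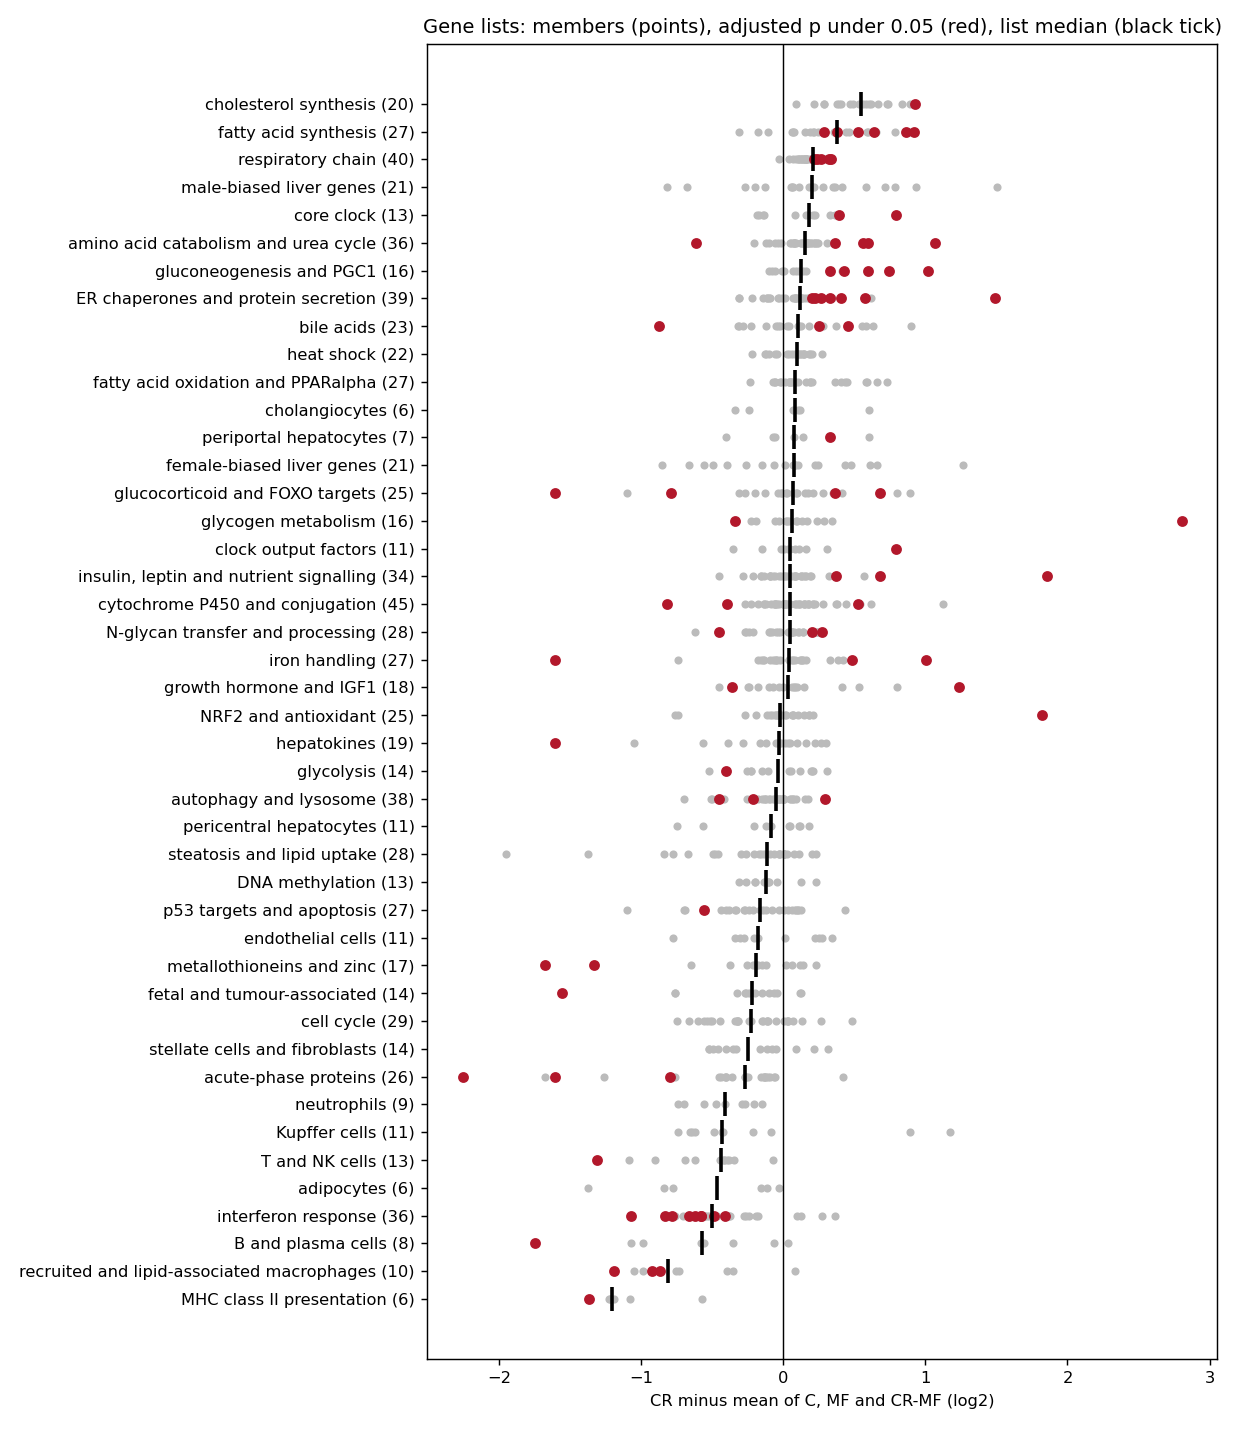
Difference of CR from the mean of C, MF and CR-MF (log2, x axis) for every tested member of 44 gene lists (points; number of genes tested in parentheses), with members of adjusted p below 0.05 in red and the list median as a black tick. Lists of cholesterol and fatty acid synthesis lie to the right, with medians of 0.55 and 0.38, and those of immune cells and interferon genes to the left, down to -1.20 for MHC class II.

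A further group concerned the endoplasmic reticulum, where secreted proteins are folded. Of 39 tested genes for chaperones and secretion 7 were called higher and none lower (17.9%, beside 1.89% of all genes called higher; list median 0.12). Derl3, which helps to pull misfolded proteins out for degradation, differed most. CR mice had levels of 7.06, 7.10, 7.58, 8.91 and 8.97, C mice from 5.73 to 6.85 with a median of 6.12, MF mice from 5.82 to 6.73 with a median of 6.40 and CR-MF mice from 6.08 to 7.57 with a median of 6.88. The difference was 1.78 from C and 1.60 from MF, and 1.08 from CR-MF, whose highest mice lay inside the CR range (2.81-fold over the average, adjusted p 0.00237). The other members were Dnajc3 (p58IPK, a co-chaperone; 0.33 ± 0.08, adjusted p 0.0256), Hyou1 (a large chaperone of the lumen; 0.57 ± 0.15, adjusted p 0.0358), Ssr4, Ssr3 and Sec61a1 of the translocation channel (0.20 ± 0.05, adjusted p 0.0278, 0.27 ± 0.07, adjusted p 0.0453 and 0.22 ± 0.06, adjusted p 0.0327) and the disulfide isomerase Pdia6 (0.41 ± 0.11, adjusted p 0.0339). Of these 7, 6 met the rule for all groups. Of 28 genes tested for N-glycan transfer and trimming, Rpn2, a subunit of the oligosaccharyl transferase (0.20 ± 0.05, adjusted p 0.0176), and Uggt1, which checks glycoprotein folding (0.28 ± 0.08, adjusted p 0.0401), were higher, and the lysosomal hexosaminidase Hexa was lower (-0.45 ± 0.11, adjusted p 0.0309). Calls in the N-glycan list made up 10.7% of it, beside 1.89% of all genes called higher and 1.59% lower. Rpn1 (0.14 ± 0.07, adjusted p 0.266), Mogs (0.24 ± 0.09, adjusted p 0.145), the first glucosidase, and Fut8 (-0.27 ± 0.11, adjusted p 0.151), a fucosyl transferase, did not pass. Calls that ended with single mice left out were those of Dnajc3 (without CR mouse 3, 7 or 13, adjusted p up to 0.0754), Hyou1 (without CR mouse 1, 3, 5, 7 or 13, adjusted p up to 0.0927), Ssr4 (without CR mouse 1, 3 or 13, adjusted p up to 0.116), Ssr3 (without any 1 of 18 mice, adjusted p up to 0.109), Pdia6 (without CR mouse 5, 7 or 13, adjusted p up to 0.106), Sec61a1 (without CR mouse 1, 3, 5 or 7, adjusted p up to 0.0932), Rpn2 (without CR mouse 3, adjusted p up to 0.0895), Uggt1 (without any 1 of 9 mice, adjusted p up to 0.121) and Hexa (without CR mouse 1, 3, 7 or 13, adjusted p up to 0.0932). The calls of Ssr3 and Uggt1 also ended with plate as a block (adjusted p 0.0511 and 0.0546).

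The promoters of Derl3 and Dnajc3 are shown because they alone among the 193 higher genes with a window (1.04%) contained the ER stress response element, CCAAT and CCACG with 9 bases between them, which NF-Y and ATF6 bind. It was found for 17 of 11053 genes tested (0.154%) and for none of the 139 lower genes. In Derl3 (chr10:75893148-75893447, plus strand) it starts at position -156, on the opposite strand, close to an E-box at -168, and in Dnajc3 (chr14:118937682-118937981, plus strand) at -105; elements are in capitals:
Derl3: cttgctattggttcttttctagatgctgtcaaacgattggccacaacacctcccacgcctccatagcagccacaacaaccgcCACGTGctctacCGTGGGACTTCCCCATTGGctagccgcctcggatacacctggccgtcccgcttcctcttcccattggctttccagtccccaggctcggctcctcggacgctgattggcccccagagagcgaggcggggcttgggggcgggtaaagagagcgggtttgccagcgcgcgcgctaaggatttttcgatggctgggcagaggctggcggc
Dnajc3: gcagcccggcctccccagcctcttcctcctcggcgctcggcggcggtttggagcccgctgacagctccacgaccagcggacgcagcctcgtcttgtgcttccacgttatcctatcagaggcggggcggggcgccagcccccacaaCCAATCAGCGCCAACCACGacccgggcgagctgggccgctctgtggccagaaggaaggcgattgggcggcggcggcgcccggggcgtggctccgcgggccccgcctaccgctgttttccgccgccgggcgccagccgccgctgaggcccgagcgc
This count rests on those 2 genes and was not tested.

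Enzymes of amino acid breakdown moved in both directions. Of 36 tested genes 4 were higher and 1 lower (13.9%, beside 1.89% and 1.59% of all genes). Gcat (glycine C-acetyltransferase, of threonine breakdown; 0.56 ± 0.10, adjusted p 0.00423), Acmsd (which diverts tryptophan breakdown from NAD synthesis; 1.07 ± 0.24, adjusted p 0.0143), Tat (tyrosine aminotransferase, a classical target of glucocorticoids; 0.37 ± 0.09, adjusted p 0.0276) and Got1 were higher. Bhmt, which remethylates homocysteine with betaine, was lower than in each group (-0.54 from C, -0.73 from MF and -0.58 from CR-MF, each with an adjusted p below 0.05; -0.62 ± 0.10, adjusted p 0.00234). The CR mice had Bhmt levels of 11.56, 12.03, 12.11, 12.27 and 12.48 and overlapped with the lowest of the freely fed mice. Of 40 genes of the respiratory chain, 39 were above the freely fed average by small amounts (median 0.21) and 5 passed (12.5%, beside 1.89% of all genes called higher), namely Cox5a (0.32 ± 0.08, adjusted p 0.0197), Atp5g1 (0.22 ± 0.05, adjusted p 0.0219), Sdhd (0.34 ± 0.09, adjusted p 0.0404), Cyc1 (0.26 ± 0.07, adjusted p 0.0407) and Cox4i1 (0.24 ± 0.07, adjusted p 0.0483). Of 45 genes of cytochrome P450 and conjugation 1 was called higher and 2 lower (6.67%, beside 1.89% of all genes called higher and 1.59% lower). These were Cyp2r1, the 25-hydroxylase of vitamin D (0.53 ± 0.11, adjusted p 0.0139), and, lower, Cyp1b1 (-0.81 ± 0.20, adjusted p 0.0296) and Cyp2c29 (-0.39 ± 0.11, adjusted p 0.0483). In a list on bile acids Klb (β-Klotho, the coreceptor of FGF15; 0.45 ± 0.11, adjusted p 0.0241) and Abcc2 (a canalicular exporter; 0.25 ± 0.07, adjusted p 0.0401) were higher and Slc10a2 (the apical bile acid transporter, in the liver found on cholangiocytes; -0.88 ± 0.23, adjusted p 0.0327) lower, out of 23 tested. These 2 higher calls and 1 lower call stand beside 1.89% of all genes called higher and 1.59% lower. Abcc2 did not meet the rule for all groups, with a mean level of 11.90 in CR and 11.74 in CR-MF mice. Of 27 tested genes of iron handling, Smad9 (1.01 ± 0.26, adjusted p 0.0318) and Bmp2 (0.48 ± 0.13, adjusted p 0.0370), both of BMP signalling, were higher and Lcn2, described below, was lower (11.1%, beside 1.89% and 1.59% of all genes). Single mice ended the calls of Acmsd (without CR mouse 3 or 7, adjusted p up to 0.0669), Tat (without CR mouse 1, 3 or 7, adjusted p up to 0.121), Cox5a (without CR mouse 1, 3 or 13, adjusted p up to 0.0951), Atp5g1 (without CR mouse 1 or 3, adjusted p up to 0.0799), Sdhd (without any 1 of 10 mice, adjusted p up to 0.126), Cyc1 (without any 1 of 9 mice, adjusted p up to 0.112), Cox4i1 (without any 1 of 19 mice, adjusted p up to 0.168), Cyp1b1 (without CR mouse 1, 3, 7 or 13, adjusted p up to 0.0944), Cyp2c29 (without any 1 of 18 mice, adjusted p up to 0.163), Klb (without CR mouse 1, 3, 5 or 7, adjusted p up to 0.0755), Abcc2 (without any 1 of 8 mice, adjusted p up to 0.109), Slc10a2 (without CR mouse 1, 3, 5 or 13, adjusted p up to 0.0956), Smad9 (without CR mouse 1, 3 or 13, adjusted p up to 0.117) and Bmp2 (without CR mouse 1, 3, 5, 7 or 13, adjusted p up to 0.131). The calls of Sdhd, Cyc1, Cox4i1 and Cyp2c29 also ended with plate as a block (adjusted p 0.0541, 0.0555, 0.0604 and 0.0604), which left 2 of the 5 calls of the respiratory chain, and that of Cyp2c29 with median centring (adjusted p 0.126).

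Several other genes rose strongly. Gpx6 encodes a glutathione peroxidase and was the only one of 25 tested genes of NRF2 and antioxidant defence to be called (4.00%, beside 1.89% of all genes called higher). It had CR levels of 7.51, 8.51, 9.10, 9.35 and 9.35, against 5.68 to 7.91, median 7.20 in C, 4.56 to 8.21, median 7.02 in MF and 6.59 to 8.13, median 7.51 in CR-MF mice (1.82 ± 0.43, adjusted p 0.0224). Ceacam2, a cell adhesion molecule related to the hepatic insulin clearance protein CEACAM1, met the stricter rule (1.38 ± 0.22, adjusted p 0.00129). Sftpa1, a surfactant protein best known from the lung, was 2.44-fold higher (1.28 ± 0.24, adjusted p 0.00476), and Etnppl, which breaks down phosphoethanolamine, 2.30-fold (1.20 ± 0.30, adjusted p 0.0309). The difference in Chrna4, a nicotinic receptor subunit, was 1.91, but CR mouse 5 lay far above the other 4 (8.18, 8.21, 8.35, 8.50 and 10.94), and the call ended without any 1 of 7 mice (adjusted p up to 0.123) and with plate as a block (adjusted p 0.0505). Akr1c18, a 20α-hydroxysteroid dehydrogenase, differed between plates: its difference was 1.38 (adjusted p 0.0426), but within plates it was 2.37, -0.18 and -0.16, so that the CR mice of G151 and G152 did not show it, and leaving out any of 11 single mice ended the call. The calls of Gpx6 and Etnppl also ended, without CR mouse 1, 3 or 13 (adjusted p up to 0.0855) and without CR mouse 1, 3 or 7 (adjusted p up to 0.121).

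**Figure D3:**
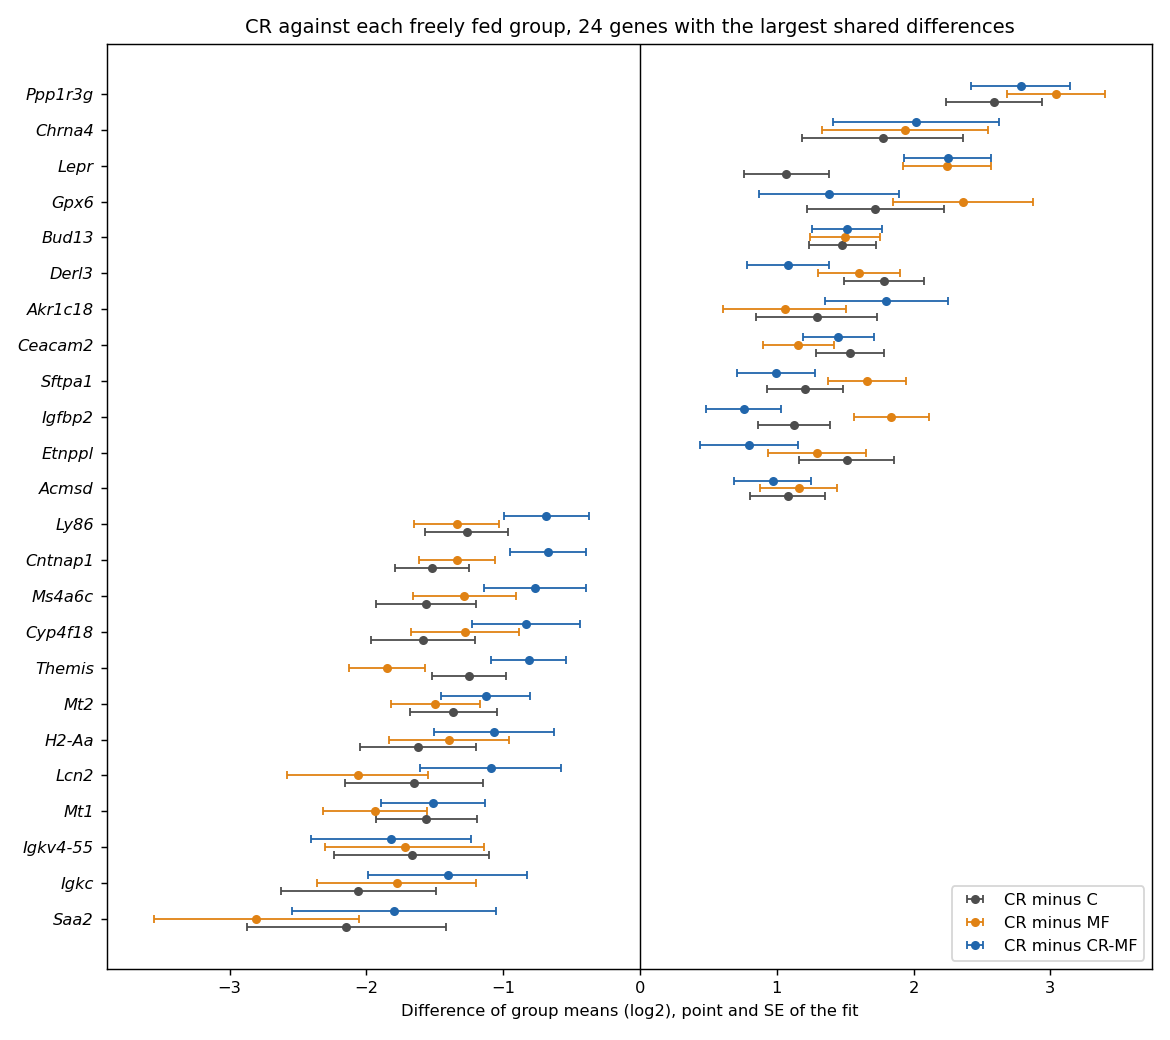
Difference of the CR mean from the C (grey), MF (orange) and CR-MF (blue) mean, in log2 with the SE of the fit, for 24 of the 406 genes, those that rose or fell most. Every gene has its points on 1 side of 0, and Lepr is the gene in which C stands apart, by 1.07 against 2.24 and 2.25.

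A pair of neighbouring genes on chromosome 9 was higher together. Bud13, a splicing factor, and Zpr1, a zinc finger protein that lies beside it, were 2.82-fold and 1.96-fold above the freely fed average (adjusted p 0.000455 and 0.000318), and both met the stricter rule. Freely fed mice varied little in Bud13: C ran from 6.37 to 6.93 with a median of 6.55, MF from 6.38 to 6.71 with a median of 6.60 and CR-MF from 6.23 to 6.68 with a median of 6.59. CR mice 5, 13, 1, 7 and 3 had, in this order, 6.61, 7.54, 8.25, 8.49 and 9.39, so that mouse 5 was inside the range of the freely fed mice and the other 4 were above all of them. For Zpr1 the same order of mice gave 9.83, 10.34, 10.64, 10.71 and 10.93. Sik3, a kinase that adjoins the same cluster, was called as well at a smaller size (0.25 ± 0.06, adjusted p 0.0305), and its call ended without CR mouse 1, 3 or 7 (adjusted p up to 0.140). Of 13956 pairs of adjacent tested genes, 15 had both members among the 406 and in the same direction, 11 higher and 4 lower. Besides Zpr1 and Bud13 they included Mt2 and Mt1, Them4 (a thioesterase; 0.58) and Lingo4 (0.87; without CR mouse 3 adjusted p 0.0630), Slc25a25 and Naif1, and Rilp and Scarf1. Neighbours named here were picked after their values had been seen.

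Among genes lower in CR, the metallothioneins Mt1 and Mt2, small proteins that bind zinc and copper and are induced by metals, glucocorticoids and inflammation, were prominent. Mt1 was at 8.52, 9.77, 9.91, 10.24 and 11.38 in CR mice, against 11.04 to 12.11, median 11.59 in C, 11.08 to 12.80, median 11.65 in MF and 10.68 to 12.74, median 11.50 in CR-MF mice, and Mt2 at 9.64, 11.43, 11.74, 12.43 and 12.88, against 12.74 to 13.36, median 12.96, 12.80 to 13.44, median 13.12 and 12.04 to 13.44, median 12.90. The highest CR mouse overlapped with freely fed mice for both genes. For Mt2 the CR mouse at 12.43 also lay above the lowest CR-MF mouse (12.04). The level of Mt1 was 3.19-fold lower (difference -1.67 ± 0.32, adjusted p 0.00562) and that of Mt2 2.52-fold lower (-1.33 ± 0.28, adjusted p 0.0104), and both calls stood without any single mouse. The lowest CR mouse for both was mouse 5. None of the other 15 tested members of the list on metallothioneins and zinc passed, but the list does not hold every zinc transporter. Outside it, Slc30a3 (0.56 ± 0.10, adjusted p 0.00415) and Slc39a2 (0.64 ± 0.13, adjusted p 0.0108), zinc transporters picked after their values had been seen, were higher in CR, by 0.56, 0.56 and 0.58 and by 0.54, 0.58 and 0.98 within plates G150, G151 and G152. The call of Slc39a2 ended without CR mouse 3 (adjusted p up to 0.0703), and that of Slc30a3 stood without any single mouse. The promoters of Mt1 and Mt2, which lie close together on chromosome 8, are shown. Capitals mark a form of the core of the metal response element, TGCGCNC on either strand. It is at position 20 in Mt1 (chr8:94178839-94179138, plus strand) and at -128 and 4 in Mt2 (chr8:94172368-94172667, plus strand):
Mt1: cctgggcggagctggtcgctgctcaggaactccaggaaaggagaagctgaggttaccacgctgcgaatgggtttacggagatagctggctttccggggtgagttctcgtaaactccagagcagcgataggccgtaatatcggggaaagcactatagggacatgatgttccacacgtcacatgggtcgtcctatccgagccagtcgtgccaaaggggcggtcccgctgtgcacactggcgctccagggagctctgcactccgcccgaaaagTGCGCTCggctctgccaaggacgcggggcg
Mt2: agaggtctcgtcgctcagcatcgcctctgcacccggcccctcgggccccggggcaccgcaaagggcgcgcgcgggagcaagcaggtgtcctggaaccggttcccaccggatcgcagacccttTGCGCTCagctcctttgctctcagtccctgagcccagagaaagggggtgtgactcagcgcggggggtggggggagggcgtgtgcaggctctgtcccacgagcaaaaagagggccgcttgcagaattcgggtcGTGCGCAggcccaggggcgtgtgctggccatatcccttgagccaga
This short form was found for 25.2% of lower, 28.5% of higher and 27.9% of all genes tested with a window. The form TGCACNC was not searched, and it occurs unmarked in both windows.

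Tsc22d1, a leucine zipper protein of the family of the glucocorticoid-induced GILZ, was 1 of the 8 lower genes in which CR and freely fed mice did not overlap. Its CR levels were 6.81, 6.84, 7.01, 7.09 and 7.22, and all 22 freely fed mice were higher (C 7.29 to 7.95, median 7.61, MF 7.65 to 8.20, median 7.96, CR-MF 7.36 to 8.49, median 7.59; -0.79 ± 0.14, adjusted p 0.00273). Ccng1, a cyclin that p53 induces, was the only one of 27 genes of p53 signalling and apoptosis to pass (-0.56 ± 0.09, adjusted p 0.00172). That is 3.70% of the list, beside 1.59% of all genes called lower. The calls of Tsc22d1 and Ccng1 stood without any single mouse. Of 29 tested genes of the cell cycle none was called (median -0.23), and of 13 genes of DNA methylation none (median -0.12). Of 22 heat shock genes none passed (median 0.10). Among 25 tested targets of glucocorticoids and FOXO, Irs2 and Tat were called higher and Tsc22d1 and Lcn2 lower. That is 2 genes in each direction, beside 1.89% of all genes called higher and 1.59% lower (list median 0.07). The calls of Irs2, Tat and Lcn2 ended when certain single mice were left out.

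The other large group of lower genes belongs to inflammation and to immune cells. Saa2, serum amyloid A2, fell most, with CR levels of 7.69, 7.90, 7.98, 9.78 and 10.39 beside 9.68 to 12.44, median 10.76 in C, 9.56 to 13.39, median 11.08 in MF and 8.24 to 12.49, median 10.44 in CR-MF mice (4.76-fold lower, -2.25 ± 0.63, adjusted p 0.0457). Of 26 tested acute-phase genes 25 were below the freely fed average (median -0.27), of which Saa2, Lcn2 (lipocalin 2; -1.60 ± 0.44, adjusted p 0.0401) and Steap4 (a metalloreductase; -0.80 ± 0.21, adjusted p 0.0388) passed and Orm3 (-1.67 ± 0.48, adjusted p 0.0513) did not. Calls made up 11.5% of the acute-phase list, beside 1.59% of all genes called lower. Saa2 and Lcn2 overlapped between CR and freely fed mice. Lcn2 was high in CR mouse 7, and the CR levels were 9.65, 9.97, 9.98, 10.01 and 12.27. Of 36 tested interferon-induced genes, 32 were below and 9 were called lower (25% of the list, beside 1.59% of all genes), none higher, with a median of -0.50. These 9 included Irgm1, a GTPase of defence within cells (-0.58 ± 0.14, adjusted p 0.0249), Xaf1 (-0.83 ± 0.20, adjusted p 0.0262), Mx1 (-0.49 ± 0.13, adjusted p 0.0391) and Ifit1 (-1.07 ± 0.29, adjusted p 0.0388), and 5 of the 9 met the rule for all groups. Ifit1 did not meet it, with a difference of -1.07 from C, -1.55 from CR-MF and only -0.59 from MF. Dropping single mice ended the calls of Saa2 (without any 1 of 14 mice, adjusted p up to 0.157), Lcn2 (without C mouse 3 or 17 or CR mouse 1, 3, 5 or 13, adjusted p up to 0.141), Steap4 (without CR mouse 1, 3, 5, 7 or 13, adjusted p up to 0.112), Irgm1 (without CR mouse 1, 3, 7 or 13, adjusted p up to 0.0943), Xaf1 (without CR mouse 1, 3, 7 or 13, adjusted p up to 0.0991), Mx1 (without C mouse 3 or CR mouse 1, 3, 5, 7 or 13, adjusted p up to 0.122) and Ifit1 (without CR mouse 1, 3, 7 or 13, adjusted p up to 0.135). The calls of Saa2 and Lcn2 also ended with plate as a block (adjusted p 0.0562 and 0.0531).

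Most markers of immune cells were below the freely fed average, though few passed the test. All 6 tested genes of MHC class II presentation were below the freely fed average (median -1.20). H2-Aa (-1.36 ± 0.37, adjusted p 0.0401) was called, or 16.7% of the list, and Cd74, the invariant chain (-1.19 ± 0.36, adjusted p 0.0610), was not. Of 10 genes of recruited and lipid-associated macrophages 9 were below (median -0.81), and Ccr2, the receptor by which monocytes leave the blood (-0.93 ± 0.23, adjusted p 0.0290), Lgals3, galectin 3 (-0.87 ± 0.23, adjusted p 0.0358), and Trem2 (-1.19 ± 0.34, adjusted p 0.0490) were called. Calls made up 30.0% of this macrophage list, beside 1.59% of all genes called lower. Trem2 did not meet the rule for all groups, with a mean level of 6.32 in CR and 6.86 in CR-MF mice. Themis, of T cell development, was called lower (-1.31 ± 0.23, adjusted p 0.00379), as was Igkc, the immunoglobulin κ constant region (-1.75 ± 0.49, adjusted p 0.0464), and the variable segment Igkv4-55 (-1.74 ± 0.49, adjusted p 0.0483). All 13 genes of T and NK cells were below (median -0.44), all 9 of neutrophils (median -0.41) and 9 of 11 of Kupffer cells (median -0.43), but of these only Themis passed. Kupffer cell markers ranged from -0.74 to 1.18, so the largest difference in that list was of a marker higher in CR, which was not called. Other myeloid genes among the largest falls were Ly86, the partner of the receptor RP105 (-1.10 ± 0.26, adjusted p 0.0235), Ms4a6c (-1.20 ± 0.32, adjusted p 0.0358) and Cyp4f18, which inactivates leukotriene B4 (-1.23 ± 0.33, adjusted p 0.0400), and outside this theme Cntnap1, a protein of neuronal contacts (-1.18 ± 0.23, adjusted p 0.00725). In whole liver, fewer cells of a type and less RNA per cell cannot be told apart. These sums ranged more widely in freely fed mice. The summed intensity of 6 MHC class II genes was 1887 to 2695 in CR mice, 2121 to 11576 in C, 3005 to 12979 in MF and 1634 to 11698 in CR-MF mice, and the summed intensity of 10 macrophage genes 1953 to 2160, 2139 to 7482, 2740 to 4764 and 1897 to 6369. The lowest C and CR-MF mice were at the level of CR mice, whereas every MF mouse was above all CR mice in both sums. The part of these cells in the acute-phase and interferon results was not tested. Endothelial markers (11 genes, median -0.17) and those of stellate cells and fibroblasts (14 genes, median -0.25) and cholangiocytes (6 genes, median 0.08) gave no call. Single mice ended the calls of H2-Aa (without any 1 of 7 mice, adjusted p up to 0.102), Ccr2 (without CR mouse 1, 3 or 7, adjusted p up to 0.111), Lgals3 (without CR mouse 1, 3, 5, 7 or 13, adjusted p up to 0.110), Trem2 (without any 1 of 18 mice, adjusted p up to 0.147), Igkc (without any 1 of 17 mice, adjusted p up to 0.152), Igkv4-55 (without any 1 of 16 mice, adjusted p up to 0.112), Ly86 (without CR mouse 1, 3 or 13, adjusted p up to 0.0795), Ms4a6c (without CR mouse 1, 3, 7 or 13, adjusted p up to 0.120) and Cyp4f18 (without C mouse 17, CR mouse 1, 3, 7 or 13 or CR-MF mouse 1, adjusted p up to 0.112), whereas those of Themis and Cntnap1 stood. The calls of Igkc, Igkv4-55 and Trem2 also ended with plate as a block (adjusted p 0.0604, 0.0625 and 0.0501).

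The CR mice were not equally far from the freely fed mice. For each mouse a score was computed as the mean signed log2 difference from the freely fed mean, over genes chosen by the same rule from fits without that mouse. The scores of the CR mice were 0.585 (mouse 3), 0.479 (mouse 1), 0.365 (mouse 13), 0.345 (mouse 7) and 0.169 (mouse 5). They rest on different genes, 99, 134, 212, 231 and 472 in this order, over which the mean score of the CR mice was 0.631, 0.597, 0.568, 0.551 and 0.522, so the scores are not on 1 common scale. C mice scored from -0.0907 to 0.142, MF mice from -0.149 to 0.0980 and CR-MF mice from -0.126 to 0.251, so that 4 CR mice were above every freely fed mouse and mouse 5 lay inside the CR-MF range. Mouse 5 was the CR mouse nearest to the freely fed mice for 149 of the 406 genes but the one farthest from them for 83, among them Fasn. Among freely fed mice, a CR-MF mouse had the level most like CR for 212 genes (52.2%), a C mouse for 123 (30.3%) and an MF mouse for 71 (17.5%), and CR-MF mice 3 and 5 alone accounted for 65 and 59. The groups held 7, 8 and 7 mice in this order, and the same counts over all genes tested were not made.

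**Figure D4:**
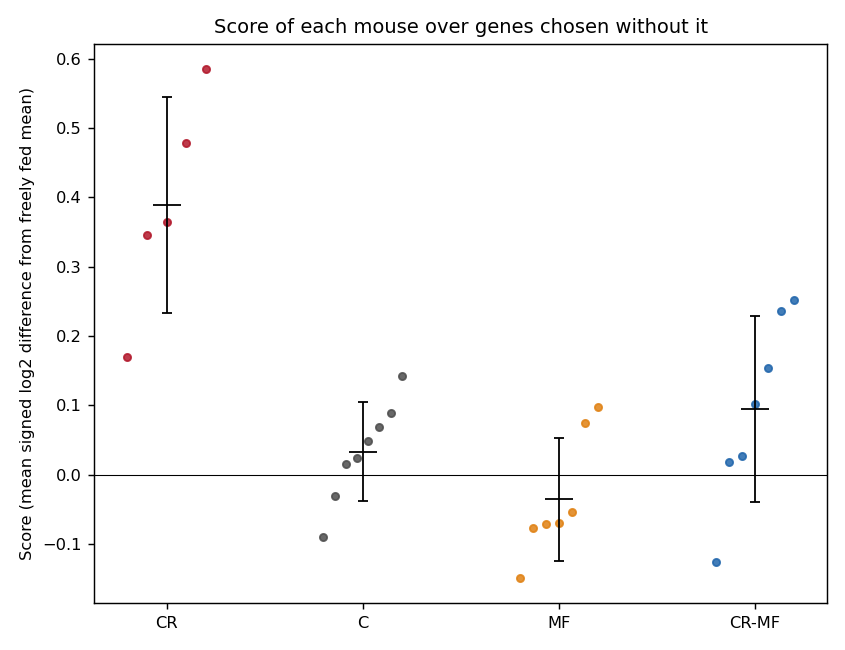
Score of each mouse (points), the mean signed log2 difference from the freely fed mean over genes chosen without that mouse, by group, with group mean and SD (bars). CR mice run from 0.169 to 0.585, and the highest freely fed mouse, of the CR-MF group, is at 0.251.

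As a check on mice that the choice of genes had not used, the rule was applied to plate G150 alone, with 3 CR mice, where it chose 41 genes. In plate G151, 34 of these (82.9%) had the same direction in the single CR mouse against the mean of the 3 freely fed mice, and in plate G152, 36 (87.8%). The CR mouse was beyond all 3 freely fed mice for 25 and for 30 of the genes. These shares rest on 1 CR mouse per plate, and genes measured in the same mouse are not independent. The same shares over all genes tested were not computed. The median signed difference of the 41 genes was 0.66 on G150, 0.25 on G151 and 0.42 on G152. Ppp1r3g (2.82, 1.90 and 3.43 on the 3 plates), Bud13 (1.25, 0.93 and 2.71), Zpr1 (0.92, 0.55 and 1.41), Ceacam2 (1.48, 0.97 and 1.43) and Tsc22d1 (-0.92, -0.33 and -0.78) were among those beyond all freely fed mice on both plates. Of the 406 genes chosen over all plates, 397 had the same sign on every plate, a count that the choice itself favours.

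**Figure D5:**
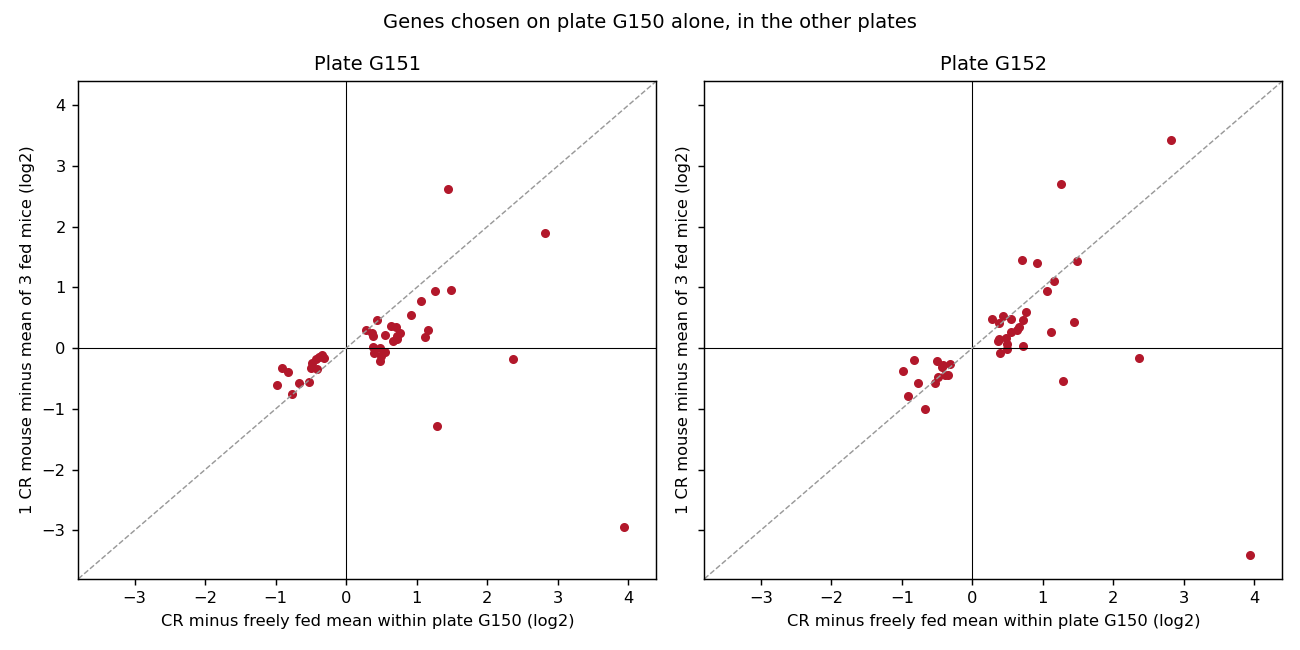
The 41 genes chosen on plate G150 (x axis, CR minus freely fed mean there, log2) against the difference between the 1 CR mouse and the mean of 3 freely fed mice on plate G151 (left) and G152 (right). Points on the dashed line would have equal differences; 34 and 36 points share the direction, and the point at the lower right, Cyp2b13, goes from 3.95 on G150 to -2.94 and -3.40.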

How the data were processed

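Liver RNA was hybridised to Affymetrix Mouse Gene 1.1 ST arrays. The values used are log2 intensities deposited by the authors, who had corrected, normalised and summarised them per transcript cluster by Robust Multiarray Average (RMA). RMA brings arrays to a common distribution, so a change in total RNA would not be seen. Of 35556 clusters 21218 had 1 gene symbol, 1881 several and 12457 none in the platform annotation. The cluster with the highest mean stood for each of 18820 genes, and 13993 genes passed a filter on level (intensity over 20 in 5 or more mice) and spread (interquartile range over 0.1, log2).

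A linear model of the 4 groups was fitted with limma 3.58.1 in R 4.3.3 (eBayes with an intensity trend, Benjamini-Hochberg adjustment over all genes tested). The contrast was CR minus the mean of the group means of C, MF and CR-MF. Error is the SE of the fit. Signed differences are CR minus freely fed. A gene followed up had an adjusted p below 0.05 and 3 differences of the same sign, each with p below 0.05. Named genes were the 12 with the largest positive and the 12 with the largest negative difference (predicted genes, clones and olfactory receptors left out), up to 4 members of each gene list with the smallest p, a list named by the study and the 4 with the smallest p among the freely fed groups; Zpr1, Sik3, Them4, Lingo4, Naif1, Rilp, Scarf1, Tmem63b, Crkl, Smarca4, Myh10, Cdc40, Slc25a25, Fasn, Dgat1, Ppargc1b, Hyou1, Ssr3, Pdia6, Cox4i1, Slc30a3, Slc39a2, Cyp2b13 and Slc22a27 were added after their values were seen. The members and lists were chosen with earlier results of these data known. Alternatives covered normalisation, filters, variance moderation, weights, plate, well row, animal number, clusters per gene and single mice. Promoters and names came from RefSeq (GRCm38.p6). The script was tested on simulated data. The precision is limited by the number of arrays.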

Additional observations from a re-analysis of the deposited data

Results flagged for a closer look

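In groups of this size a value far from its neighbours is found by chance in about 1 of 20 groups, and 24 such values were found in 412 groups, where about 20.6 would be expected. All are log2 levels, marked as the highest or the lowest of their group. CR mouse 5 stood apart in Chrna4 (highest, 10.94). MF mouse 9 stood apart in Chrna4 (lowest, 4.44), Insig1 (lowest, 8.71), Hyou1 (highest, 9.80) and Uggt1 (highest, 9.73). CR-MF mouse 15 stood apart in Bud13 (lowest, 6.23), Acmsd (lowest, 6.48), Sik1 (highest, 9.84), Mlxipl (lowest, 10.22), Irs2 (highest, 8.08), Tat (highest, 13.24) and Slc39a2 (lowest, 5.03). MF mouse 11 stood apart in Igkc (highest, 10.96) and Igkv4-55 (highest, 10.19). CR mouse 7 stood apart in Lcn2 (highest, 12.27). CR-MF mouse 3 stood apart in Noct (highest, 8.65). CR-MF mouse 5 stood apart in Ppargc1b (highest, 7.12). MF mouse 7 stood apart in Stat5a (highest, 8.66) and Cyp2r1 (lowest, 7.64). MF mouse 1 stood apart in Ccng1 (lowest, 9.67). CR-MF mouse 11 stood apart in Ccr2 (highest, 6.99), Trem2 (highest, 8.72) and Fut8 (highest, 6.29). MF mouse 5 stood apart in Mogs (highest, 7.16). 

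The freely fed groups differed among themselves (F test of limma over C, MF and CR-MF) in Lepr (adjusted p 0.0336), Gyg (adjusted p 0.0483), Fut8 (adjusted p 0.0318), Cd36 (adjusted p 0.02) and Slc22a27 (adjusted p 0.0154).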

How the results depend on the processing

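Shares are of the genes tested. As reported, 1.89% were higher and 1.59% lower than the freely fed average, 1.68% and 1.22% than each group, and 0.822% differed among the freely fed groups. With arrays centred on their median over named genes, higher calls rose to 951 (6.61%; 690, 4.80%, against each group) and lower calls against each group were 0.709%, so that the higher share of calls was 85.4% in place of 54.4%; centring over all clusters, an alternative chosen after seeing the data, gave 302 and 198. Array weights gave 457 (3.27%) and 406 (2.90%), 371 (2.65%) higher than each group, and 397 (2.84%) among the freely fed groups. Without the CR-MF arrays there were 476 (3.40%) and 630 (4.50%), and 474 (3.39%) and 617 (4.41%) against each group, for which fewer differences had to pass. On plate G150 alone, with 3 CR mice, there were 28 (0.200%) and 14 (0.10%), 28 (0.200%) and 13 (0.0929%) against each group, and 50 (0.357%) among the freely fed. A p under 0.01 in each difference left 125 (0.893%) and 79 (0.565%). Leaving out 1 mouse at a time gave 0.457% to 2.34% higher and 0.272% to 2.02% lower than the average, 0.457% to 2.06% and 0.250% to 1.50% than each group, and 0.236% to 1.56% among the freely fed groups, the last falling to 33 genes without CR-MF mouse 13, 48, 49 and 55 without CR-MF mice 1, 9 and 5, and rising to 218 and 187 without CR-MF mouse 11 and MF mouse 13. Animal numbers recur across groups. Deviations of mice with the same number correlated from -0.25 to 0.36 (median 0.09), with 13 of 27 pairs over 0.1. Pairs with different numbers were not compared, so whether the number pairs the mice was not tested. With the number as a replicate block, 331 and 266 genes were called, and no call of a gene followed singly ended. With plate as a block 223 and 215 were called. Of 88 called genes followed singly, 26 kept their call without any single mouse, 74 with plate as a block, 85 with median centring and 11 on G150 alone. The only change of direction was in Slc22a27 without the CR-MF arrays, -0.0080 in place of 0.48, neither called. The cause of these changes was not tested. On simulated data of this design, 69% of differences of 0.5 and 93% of 1 (log2) were called, so smaller differences may be missed with 5 CR mice.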

Other observations

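Cyp2b13, a cytochrome P450 that is higher in female than in male mouse liver, was chosen after its values had been seen, as the gene, of the 41 chosen on plate G150, whose difference changed most on the other plates. Its log2 level was high in the 3 CR mice of plate G150 and low in the CR mice of the other plates, so that the CR group ran from 3.87 to 10.17 with an SD of 3.13. C mice ran from 4.33 to 8.80, MF mice from 5.65 to 10.11 and CR-MF mice from 3.53 to 5.80. The difference of CR from the freely fed mean was 3.95 on G150, -2.94 on G151 and -3.40 on G152, and over all mice it was 1.26 ± 0.86 (limma, adjusted p 0.404). Slc22a27, an organic anion transporter picked because its sign also changed there, gave 1.29, -1.28 and -0.55 on these plates and 0.48 over all mice (adjusted p 0.338).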
